A study of Mus musculus with 5 samples.

Results

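The clustered protocadherin locus was taken as the 50 kb bins of mouse chromosome 18 from 37050001 to 38050000 (build mm9) that had a value in all 5 libraries. All 20 possible bins did, of 50542 such bins in the series. The alpha cluster was placed at 37100001 to 37350000 (5 bins), the beta cluster at 37400001 to 37700000 (6 bins) and the gamma cluster at 37800001 to 38000000 (4 bins). The other 5 bins lie between or beside the clusters. The 1 Mb flanks, at 36050001 to 37050000 upstream and 38050001 to 39050000 downstream, held 20 bins each. The rule for the members uses position alone.

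Clustered protocadherins are cell surface adhesion proteins of neurons. In the alpha and gamma clusters, each gene contributes a variable first exon with its own promoter, which is spliced to constant exons at the end of its cluster, whereas each beta gene is a stand-alone exon. An individual neuron uses only a few of these promoters, a choice that involves CTCF, cohesin and distant enhancers and gives the cell surface an identity used in self-avoidance of neurites. The last genes of the alpha and gamma clusters, the C types, are used more evenly among neurons.

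RefSeq (GRCm38.p6) listed 58 genes in the clusters by symbol. These were 14 alpha genes from Pcdha1 to Pcdhac2, of which 2 were C types, 22 beta genes from Pcdhb1 to Pcdhb22, and 22 gamma genes. The gamma genes comprised 12 of the A, 7 of the B and 3 of the C type, and 21 were protein coding. All 14 alpha genes ended within 2 kb of each other, as did all 22 gamma genes, at the shared constant exons. A further 3 gene models started in the alpha cluster and ended at the gamma constant exons. In gene order, Hars, Hars2 (histidyl-tRNA synthetases) and Zmat2 preceded the alpha cluster. Slc25a2 and Taf7, a subunit of the general transcription factor TFIID, stood between beta and gamma. Diaph1 (an actin-nucleating formin), Hdac3 (a histone deacetylase), Rell2, Fchsd1, Arap3 and the non-clustered protocadherin gene Pcdh1 followed the gamma cluster. This table is of another build than the files, so bins were tied to clusters and not to genes, and no sequence was printed.

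The libraries were Hi-C, which joins and sequences DNA that lies close together in the nucleus, from NeuN- and GFP-stained sorted nuclei of mouse hippocampus. All groups shared the genotype label +/+ and came from ArcCreERT2 mice crossed to an R26R-STOP-floxed reporter for eYFP, a yellow fluorescent protein. The tamoxifen-dependent Cre is driven by Arc, an immediate early gene, so neurons that were active around the dose of hydroxytamoxifen given before fear conditioning keep the fluorescent label. By title there were 2 Basal, 1 Early and 2 Late libraries. For each group 100000 nuclei were pooled from 2 animals, with age and sex not given in the labels. One treatment label (foot shock and collection on day 0, with no recall) is attached to all 5 libraries, although the protocol describes collection at 1.5 to 2 h and at 5 days. The labels do not say which nuclei of the GFP sort entered each group, and the files hold no expression values against which neuronal identity could be checked. Because separate animals per library are not stated, p-values measure the spread between libraries, which may be technical.

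The value analysed was PC1, the first principal component of the interaction matrix, a signed score for each bin. In the convention of HOMER, positive PC1 marks compartment A, the open and gene-rich part of the genome, and negative PC1 compartment B, the closed and gene-poor part. On chromosome 18 each library had a mean of 0 and an SD of 1.00 over 1757 bins, so differences are in units of that SD. The depth is unknown because the files hold no read counts. Local noise was the scatter of a bin around the bins 100 kb to either side, taken in differences between libraries and solved per library. It was 0.127 and 0.129 in the Basal pair, 0.226 in the Early library and 0.114 and 0.204 in the Late pair. Differences between states at that scale would also enter it. Bins were compared in limma over 47652 bins, and stretches in limma over 2315 tiles of 1 Mb, each cut at the same offsets as the locus. Calls are Benjamini-Hochberg adjusted p-values under 0.05.

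By mean PC1 the locus was a B domain between A flanks in every library. Above 0 it held 2 or 3 bins in each Basal and Late library and 0 in Early. Mean PC1 over its 20 bins was -0.75 and -0.77 in the Basal pair replicates 1 and 2, -1.50 in the Early library and -0.88 and -1.05 in Late replicates 1 and 2. The upstream flank stood at 1.31 and 1.15 in the Basal pair, 0.39 in Early and 1.25 and 1.09 in the Late pair. The downstream flank stood at 1.38 and 1.47 in the Basal pair, 0.92 in Early and 1.45 and 1.28 in the Late pair. Every library thus had both flanks above 0 and the locus below 0, with Early lowest in all 3 stretches.

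Such a step was rare among 1 Mb tiles cut on the grid of the locus. That grid was set so that the locus fills 1 tile, whereas other B domains can be split between tiles. The ranks and the share of tiles given here therefore favour the locus, and other grids were not tested. The locus minus the mean of its flanks was -2.09 and -2.08 in the Basal pair, -2.15 in the Early library and -2.23 and -2.24 in the Late pair. Ranked from the lowest of 2175 tiles with both neighbours measured, the locus was number 3 in both Basal libraries, 4 in the Early library and 2 in both Late libraries. A tile below 0 between neighbours above 0 in all 5 libraries was found 29 times (1.33% of tiles), the locus included. Its level alone was not extreme in Basal, where 26.0% and 25.4% of 2315 tiles were lower, or in Late, with 22.3% and 15.0%. In Early 2.68% of tiles were lower, and the locus was the lowest of the 87 tiles of chromosome 18. It ranked 20, 20, 17 and 13 there in the Basal and Late libraries.

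**Figure D1:**
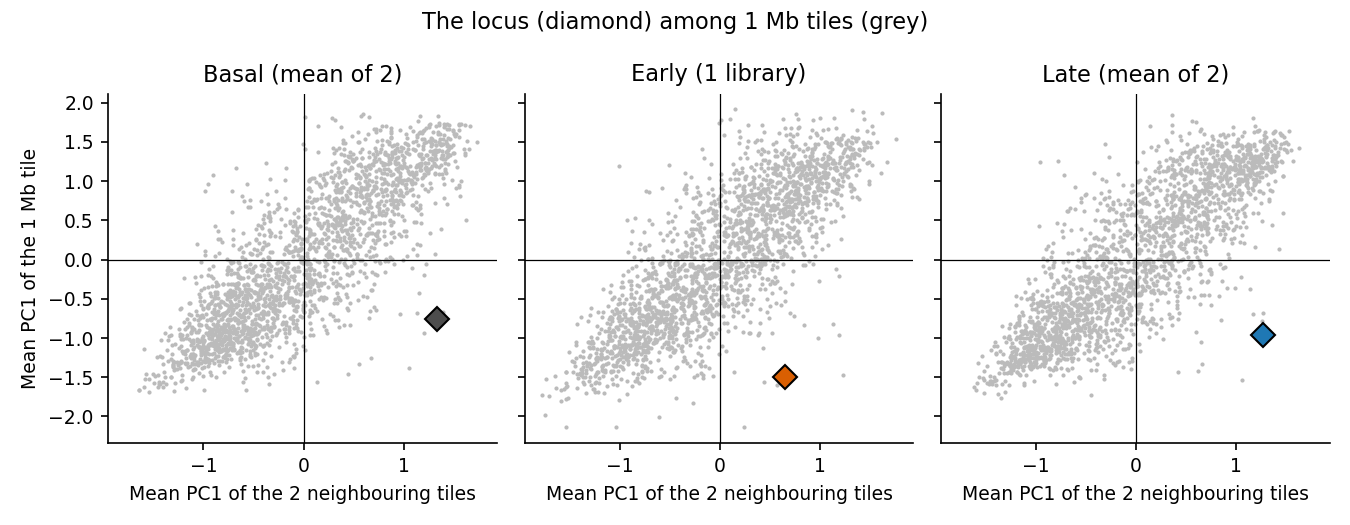
Mean PC1 of each 1 Mb tile (y axis) against the mean PC1 of its 2 neighbouring tiles (x axis) in Basal (mean of 2 libraries), Early (1 library) and Late (mean of 2 libraries). Grey points are 2175 tiles and the diamond is the protocadherin locus, which stands at the lower edge of the cloud in each panel, at -0.76 in Basal, -1.50 in Early and -0.96 in Late.

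The edges of the B domain were set by the place where PC1 crossed 0 between bin centres. On the upstream side, relative to the start of the locus, this was at -90.3 and -96.8 kb in the Basal pair, at -125.7 kb in the Early library and at -69.0 and -71.8 kb in the Late pair. The first bin outside the locus (37000001 to 37050000) was at -1.39, -1.23, -1.25, -1.01 and -1.10 in the Basal pair replicates 1 and 2, Early, and Late replicates 1 and 2, close to the first bin inside it at -1.44, -1.06, -1.58, -1.35 and -1.10. On the downstream side the crossing fell inside the gamma stretch in Basal (860.7 and 899.5 kb from the start) and Late (874.0 and 895.2 kb), and beyond the locus in Early (1035.9 kb). The domain therefore spanned 951 and 996.3 kb in Basal, 1161.6 kb in Early, and 943 and 967 kb in Late. Its width in Early lay outside the range of the other 4 libraries, and the widths of Basal and Late overlapped. The upstream crossings of Basal and Late did not overlap. The flank bin at 36950001 to 37000000 was at -0.34 and -0.54 in the Basal pair, -0.75 in Early, and 0.14 and 0.075 in the Late pair. The last bin inside the locus (38000001 to 38050000) was at 0.13, 0.76, -0.12, 0.45 and 0.68, and the first outside it at 0.54, 0.76, -0.12, 0.75 and 1.16, in the same order of libraries.

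Within the domain, PC1 was not even. In Basal the beta cluster was lowest, at -1.24 and -1.30 (mean -1.27 ± 0.049, SD, n = 2). The alpha cluster was at -0.45 and -0.49 (-0.47 ± 0.030, SD, n = 2), and the gamma cluster highest, at -0.18 and -0.36 (-0.27 ± 0.13, SD, n = 2). The order from beta through alpha to gamma was the same in each of the 5 libraries, but the gaps were not. Alpha stood above beta by 0.78 and 0.81 in the Basal pair, 0.18 in Early, and 0.25 and 0.39 in the Late pair. Gamma stood above beta by 1.05 and 0.94 in the Basal pair, 0.44 in Early, and 1.14 and 1.23 in the Late pair. Alpha was thus near gamma in Basal and nearer to beta in Late.

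**Figure D2:**
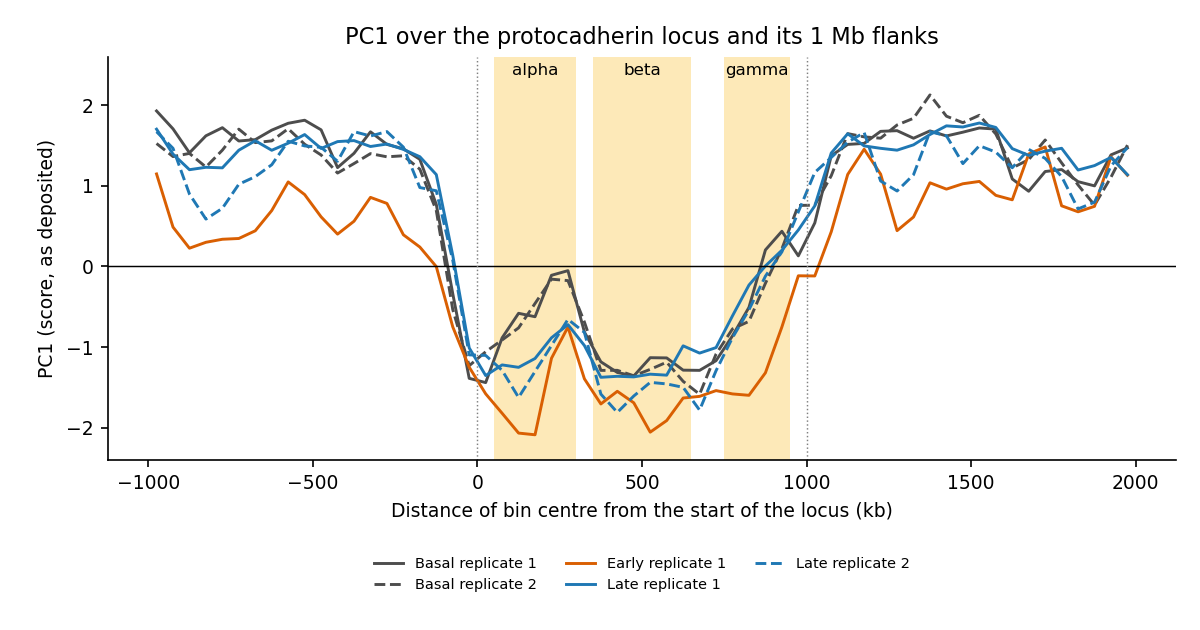
PC1 of each 50 kb bin (y axis, score as deposited) against the distance of the bin centre from the start of the locus in kb (x axis), with 1 line per library, shaded alpha, beta and gamma stretches, and dotted lines at the ends of the locus. Basal lines peak near 0 at the end of the alpha stretch, where Late and Early lie lower, and Early alone stays low through the gamma stretch.

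Both clusters with constant exons sloped upward in coordinate order. In the alpha stretch, the mean of the last 2 bins, toward Pcdhac1, Pcdhac2 and the constant exons in gene order, exceeded that of the first 3 by 0.62 and 0.54 in the Basal pair, 1.05 in Early, and 0.40 and 0.59 in the Late pair. In the gamma stretch the last 2 bins exceeded the first 2 by 1.00 and 0.73 in the Basal pair, 0.55 in Early, and 0.52 and 0.74 in the Late pair. The beta stretch was flat, with an SD over its 6 bins of 0.098 and 0.080 in the Basal pair, 0.19 in Early, and 0.15 and 0.14 in the Late pair. Over the 20 bins the 2 Basal profiles had a Pearson r of 0.925 and the 2 Late profiles one of 0.938. The 4 Basal-Late pairs gave 0.817 to 0.899 and Early gave 0.674 to 0.811 with the others. These are descriptions over bins that share reads with their neighbours.

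The comparison of Late with Basal asked how the compartment environment of the locus differed in the Late state. The alpha cluster, already in B in Basal, lay lower within B in Late, and no bin of the beta or gamma clusters was called. Of the 20 bins of the locus, 4 were lower in Late and 0 higher, where 7.63% of all bins were lower. Without adjustment, 5 bins had a p under 0.05. The 4 bins were all in the alpha stretch, at 37150001 to 37350000. The count was 2 without Basal replicate 1 or without Basal replicate 2, 6 without Late replicate 1, and 0 with all sequences and chromosome 7 in the fit (5 at p under 0.05 without adjustment). The fit with chromosome 7 called 0 bins of the whole series here, and that chromosome had opposite signs in some library pairs (lowest r -0.976). With a 10 Mb running mean removed 2 bins were lower, and 1 gamma bin, at 37850001 to 37900000, was higher (0.48, limma adjusted p = 0.0464).

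The bin at 37150001 to 37200000 had a PC1 of -0.58 and -0.76 in the Basal pair and -1.25 and -1.63 in the Late pair. The difference was -0.77 ± 0.15 (SE, limma adjusted p = 0.0123). The bin at 37200001 to 37250000 had -0.62 and -0.46 in the Basal pair and -1.14 and -1.30 in the Late pair. In both bins the Late libraries lay below both Basal libraries. The first call was lost without Basal replicate 1 (adjusted p = 0.0771), and the second without Basal replicate 2 (0.0932) or with a 10 Mb running mean removed (0.0533). The bin at 37250001 to 37300000 went from -0.11 and -0.16 to -0.89 and -0.98, which was the largest of these differences (-0.80 ± 0.12, SE, limma adjusted p = 0.00423). The bin at 37300001 to 37350000 went from -0.053 and -0.18, near the border of A and B, to -0.72 and -0.66. Its call was lost without Basal replicate 1 (adjusted p = 0.153), without Basal replicate 2 (0.0695) and with a 10 Mb running mean removed (0.127). The first alpha bin, at 37100001 to 37150000, was at -0.89 and -0.91 in the Basal pair and -1.22 and -1.29 in the Late pair. Its groups did not overlap either, but it was not called (limma adjusted p = 0.0672).

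Over its 5 bins the alpha cluster went from a Basal mean of -0.47 ± 0.030 to a Late mean of -1.11 ± 0.090 (SD, n = 2 each), which differed by -0.64 ± 0.082 (SE, limma adjusted p = 6.94e-04). Of 2315 stretches at the same offsets, 34.4% passed in either direction and it ranked 78 from the most negative. The call held in all 13 alternatives run, with differences from -0.70 to -0.38 and adjusted p from 1.07e-04 to 0.0204. The smallest of these was with a 10 Mb running mean removed. Leaving out Early cannot alter a Late minus Basal fit. Setting the SD of each chromosome to 1 hardly altered the values, as chromosome 18 already stood at 1.00. Those alternatives are therefore no test of the call.

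The beta cluster was at -1.24 and -1.30 in the Basal pair and -1.30 and -1.57 in the Late pair, and 1 Late library lay within the Basal range. Its difference of -0.16 was not called (95% interval -0.40 to 0.073, limma adjusted p = 0.240), while 36.2% of stretches at these offsets passed. It was called only without Late replicate 1 (-0.30, adjusted p = 0.0137), and its sign turned when a 10 Mb running mean was removed (0.11). The gamma cluster was at -0.18 and -0.36 in the Basal pair and -0.16 and -0.34 in the Late pair. These ranges overlapped, and the difference was 0.022 (95% interval -0.20 to 0.24, limma adjusted p = 0.885), where 34.8% of stretches passed. With a 10 Mb running mean removed gamma was higher in Late by 0.30 (adjusted p = 0.0322), so its lack of a call holds for the values as deposited.

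The difference between the clusters was itself tested. Alpha minus gamma went from a Basal mean of -0.20 ± 0.097 to a Late mean of -0.86 ± 0.038 (SD, n = 2 each). The change was -0.66 ± 0.11 (SE, limma adjusted p = 0.00492). It passed in every alternative that kept all Basal and Late libraries (limma adjusted p from 1.33e-05 to 0.0297). With single libraries left out it was -0.73 to -0.59. Setting chromosome medians to 0 or leaving out Early could not alter it, and setting chromosome SDs to 1 hardly did, so these are no test of it. Alpha minus beta changed by -0.47 ± 0.091 (SE, limma adjusted p = 0.0292), a call lost without Basal replicate 1 (adjusted p = 0.211) or Basal replicate 2 (0.267). Beta minus gamma changed by -0.18 and was not called (95% interval -0.41 to 0.041, limma adjusted p = 0.292). The same differences passed in 18.2% (alpha and gamma), 8.25% (alpha and beta) and 9.63% (beta and gamma) of tiles.

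**Figure D3:**
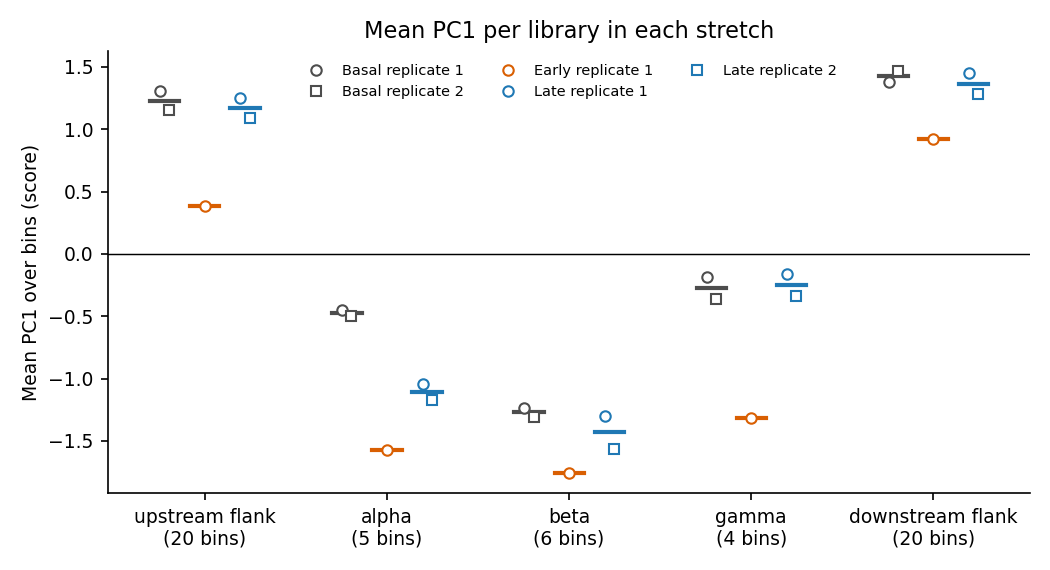
Mean PC1 over the bins of each stretch (y axis) for each library (circles, replicate 1, and squares, replicate 2), with a bar at the group mean. In alpha both Late libraries lie below both Basal libraries, in gamma the Late and Basal libraries overlap, and Early is the lowest library in all 5 stretches.

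The locus as a whole fell by 0.20 ± 0.064 (SE, limma adjusted p = 0.0298) from Basal to Late, where 49.5% of tiles passed and it ranked 438 from the most negative. This call was lost without Basal replicate 1 (adjusted p = 0.169) or Basal replicate 2 (0.118), and the sign turned with a 10 Mb running mean removed (0.063, adjusted p = 0.276). The flanks differed by -0.057 each and were not called (limma adjusted p = 0.545 upstream and 0.511 downstream), but both were higher in Late with a 10 Mb running mean removed (0.15 and 0.19, adjusted p = 0.0493 and 0.0175). Without Late replicate 1 both were lower in Late (-0.13 and -0.14, adjusted p = 0.0453 and 0.0174). The locus minus its flanks changed by -0.15 ± 0.049 (SE, limma adjusted p = 0.0374), where 35.4% of tiles passed, and this call too was lost without either Basal library (adjusted p = 0.257 and 0.290). No bin of the locus changed sign between the Basal and the Late pair, against 5.75% of all bins. Among flank bins, 1 of 20 upstream was called higher in Late and 0 lower, where 13.3% of chromosome 18 bins were higher. Downstream, 0 of 20 were called.

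The comparison of Early with Basal put the same question to the Early state, which a single library represents. Most of the locus was lower in Early, and so were its flanks. Of the 20 bins, 12 were lower and 0 higher, where 9.98% of all bins were lower. All 5 alpha bins, all 4 gamma bins and 2 of 6 beta bins were called. The remaining call was the bin at 37350001 to 37400000, between alpha and beta. Beside this, 17 of 20 bins of the upstream flank and 9 of 20 of the downstream flank were lower, and Early had the highest local noise of the 5 libraries. The part of that noise in the result was not tested beyond the weighted fit given here. With libraries weighted by their local noise, 9 bins of the locus were called, against 6 with all sequences and chromosome 7 in the fit and 5 with a 10 Mb running mean removed.

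The deepest falls were at 37150001 to 37250000 in the alpha stretch. The bin at 37200001 to 37250000 was at -0.62 and -0.46 in the Basal pair and at -2.09 in Early, the lowest value of the locus in any library. Its difference was -1.55 ± 0.155 (SE, limma adjusted p = 0.00111). The bin at 37150001 to 37200000 stood at -2.07 in Early, a difference of -1.40 ± 0.19 (SE, limma adjusted p = 0.00255). At the other end of the locus, the gamma bin at 37900001 to 37950000 was at 0.20 and -0.21 in the Basal pair and at -1.32 in Early (difference -1.32 ± 0.19, SE, limma adjusted p = 0.00322). The last gamma bin, the highest of that stretch, was in A in both Basal libraries (0.44 and 0.22) and in B in Early (-0.75). The last bin of the locus was also in A in Basal (0.13 and 0.76) and in B in Early (-0.12), which made 2 of 20 bins with opposite signs, against 4.09% of all bins that passed from A to B.

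By cluster, alpha was lower by 1.10 in Early, at -1.57 against -0.47 ± 0.030 in Basal (SD, n = 2, limma adjusted p = 1.46e-04), and it ranked 33 from the most negative of 2315 stretches. Gamma went from -0.27 ± 0.13 in Basal (SD, n = 2) to -1.31, a difference of -1.04 ± 0.12 (SE, limma adjusted p = 1.57e-04), rank 48 from the most negative. Beta went from -1.27 ± 0.049 (SD, n = 2) to -1.76, a difference of -0.49 ± 0.12 (SE, limma adjusted p = 0.0198). The lowest bin of chromosome 18 in Early was at -2.13, and whether beta had less room to fall was not tested. The shares of stretches that passed at these offsets were 35.4%, 36.7% and 37.9% for alpha, gamma and beta. Alpha and gamma were called under each of the 12 alternatives run. Beta lost its call under 4 of them, and its difference was -0.031 with a 10 Mb running mean removed (adjusted p = 0.834).

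In Early the gaps of alpha and gamma above beta narrowed, while the gap between alpha and gamma had no called change. Alpha minus beta changed by -0.61 ± 0.11 (SE, limma adjusted p = 0.0276) and beta minus gamma by 0.55 ± 0.12 (SE, limma adjusted p = 0.0275). Alpha minus gamma changed by -0.061 and was not called (95% interval -0.36 to 0.24, limma adjusted p = 0.791). These measures passed in 7.21%, 11.9% and 16.2% of tiles. Both calls were lost without Basal replicate 1 (adjusted p = 0.187 and 0.123) or Basal replicate 2 (0.172 and 0.0537), and beta minus gamma also with the replicate number as a block (0.0805).

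The whole locus was lower in Early by 0.74 ± 0.079 (SE, limma adjusted p = 2.23e-04), where 48.9% of tiles passed. The upstream flank was lower by 0.84 and the downstream flank by 0.50 (limma adjusted p = 2.19e-04 and 0.00182). The locus minus its flanks changed by only -0.064, which was not called (95% interval -0.20 to 0.068, limma adjusted p = 0.451, with 27.4% of tiles passing). With a 10 Mb running mean removed the locus (-0.28), alpha (-0.65) and gamma (-0.56) kept their calls with smaller differences, while the downstream flank lost its call (-0.031, adjusted p = 0.716).

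**Figure D4:**
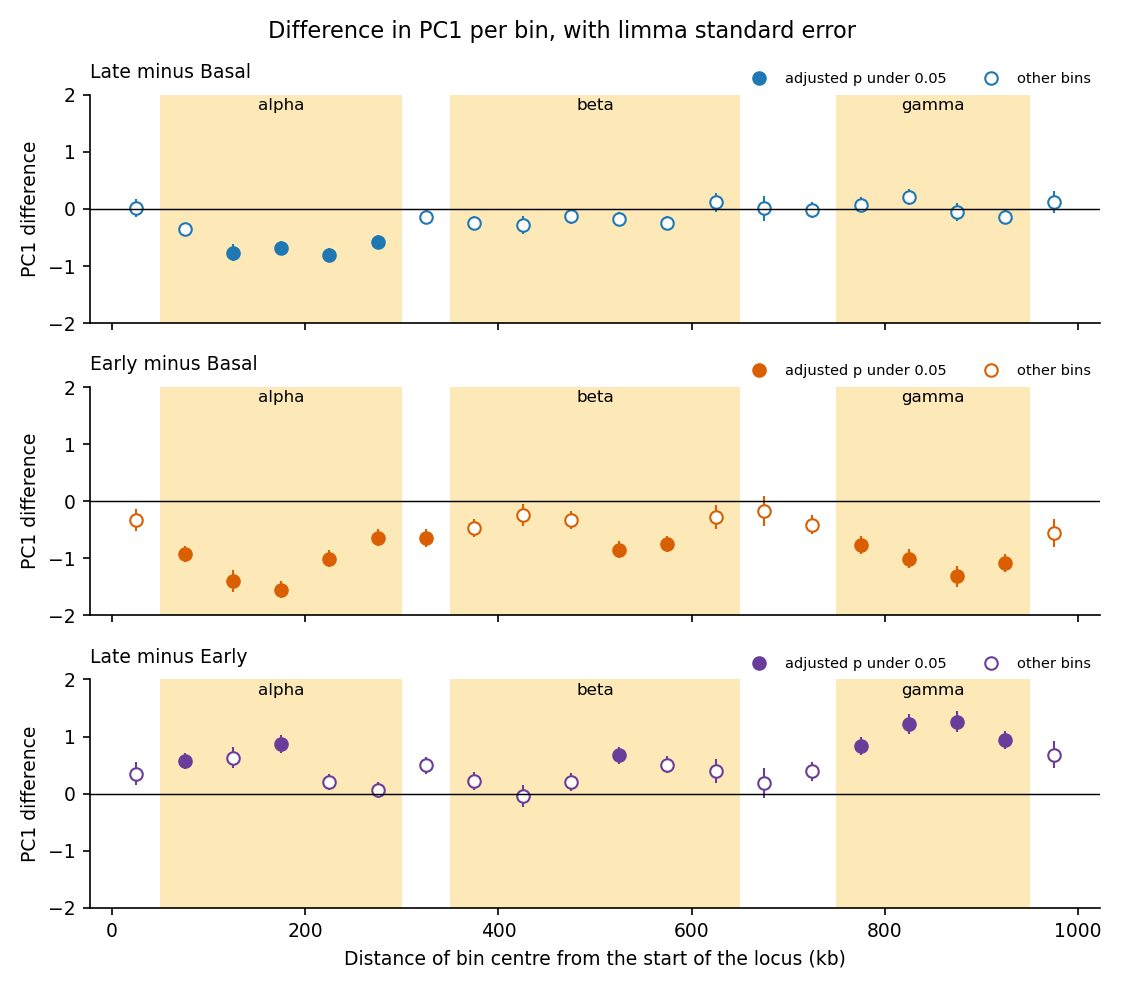
Difference in PC1 per bin (y axis, points, with the limma standard error as bars) against the distance of the bin centre from the start of the locus in kb (x axis) for the 3 comparisons. Filled points have an adjusted p under 0.05: 4 alpha bins in Late minus Basal, 12 bins in Early minus Basal, and 7 bins, among them all 4 gamma bins, in Late minus Early.

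The comparison of Late with Early asked where the Late state differed from the Early one. It shares the Early library with the comparison above, so its values are given for themselves. Of the 20 bins, 7 were higher in Late and 0 lower, where 6.28% of all bins were higher. They comprised all 4 gamma bins, 2 of 5 alpha bins and 1 of 6 beta bins. Weighted by local noise the count was 2, without Late replicate 2 it was 12, and with all sequences and chromosome 7 in the fit it was 0.

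The largest differences were in gamma bins. The bin at 37900001 to 37950000 was at -1.32 in Early and at 0.0048 and -0.12 in the Late pair (difference 1.26 ± 0.19, SE, limma adjusted p = 0.00747). The bin at 37850001 to 37900000 was at -1.60 in Early and at -0.23 and -0.54 in the Late pair (1.21 ± 0.17, SE, limma adjusted p = 0.00643). The last gamma bin was in B in Early (-0.75) and in A in both Late libraries (0.20 and 0.18). With the last bin of the locus (-0.12 in Early, 0.45 and 0.68 in the Late pair) it made 2 of 20 bins with opposite signs, against 3.46% of all bins that passed from B to A.

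The alpha cluster was also described in parts, whose changes were not tested against each other. Its first 3 bins averaged -1.99 in Early and -1.21 and -1.41 in the Late pair, against -0.70 and -0.71 in the Basal pair. Its last 2 bins averaged -0.95 in Early and -0.80 and -0.82 in the Late pair, against -0.082 and -0.17 in the Basal pair. In the last bin the Early library (-0.75) lay just below both Late libraries (-0.72 and -0.66), and neither of the last 2 bins was called (limma adjusted p = 0.359 and 0.800). The bin at 37200001 to 37250000, at -2.09 in Early and -1.14 and -1.30 in the Late pair, was called (named after its values were seen, difference 0.87 ± 0.155, SE, limma adjusted p = 0.0134). The bin at 37100001 to 37150000 was called too (0.57, limma adjusted p = 0.0351). The bin at 37150001 to 37200000 was not (0.63, limma adjusted p = 0.0583).

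As a whole, gamma was higher in Late than in Early by 1.06 ± 0.12 (SE, limma adjusted p = 2.82e-04), with 26.4% of stretches passing and rank 19 from the most positive of 2315. Alpha was higher by 0.47 ± 0.10 (SE, limma adjusted p = 0.0119, 28.1% passing), a call lost with a 10 Mb running mean removed (0.27, adjusted p = 0.0522). Beta was higher by 0.33 and was not called (95% interval 0.040 to 0.61 unadjusted, limma adjusted p = 0.0816, 30.2% passing). It was called without Late replicate 2 (0.46, adjusted p = 0.00618) and with the replicate block (0.41, adjusted p = 0.00309).

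Alpha minus gamma was lower in Late than in Early by 0.60 ± 0.13 (SE, limma adjusted p = 0.0263, 10.3% of tiles passing). Beta minus gamma differed by -0.74 ± 0.12 (SE, limma adjusted p = 0.0193, 5.75% passing), and ranked 26 from the most negative of 2315 tiles. Alpha minus beta differed by 0.14 and was not called (95% interval -0.12 to 0.40, limma adjusted p = 0.489, 2.07% passing). Weighted by local noise, the first 2 of these calls were lost (adjusted p = 0.136 and 0.111), and beta minus gamma also with the replicate block (0.0859).

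The locus as a whole was higher in Late than in Early by 0.53 ± 0.079 (SE, limma adjusted p = 0.00176, 43.7% of tiles passing), and by 0.34 with a 10 Mb running mean removed. Its flanks were higher by 0.78 upstream and 0.45 downstream (limma adjusted p = 6.68e-04 and 0.00460). The locus minus its flanks differed by -0.083 and was not called (95% interval -0.21 to 0.048, limma adjusted p = 0.331, 25.4% passing).

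Single bins differed in how far the 5 libraries ranged. The bin of lowest mean in beta, at 37500001 to 37550000, was at -1.36 and -1.36 in the Basal pair, -1.69 in Early, and -1.37 and -1.61 in the Late pair, a range of 0.34. The bin of highest mean in beta, at 37650001 to 37700000, ran from -1.63 in Early to -0.99 in Late replicate 1. In alpha the bin of lowest mean, at 37150001 to 37200000, spanned a range of 1.49 and that of highest mean, at 37300001 to 37350000, one of 0.70. In gamma the lowest bin, at 37800001 to 37850000, was at -0.86 and -0.78 in the Basal pair, -1.58 in Early, and -0.61 and -0.88 in the Late pair.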

How the data were processed

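Each of the 5 libraries came as 1 table of PC1 per 50 kb bin. PC1 was deposited as a signed score, made with HOMER on mm9 per the submitters' processing notes and in windows of 100 kb per the file names, so neighbouring bins share reads. For versions, the aligner and the setting of the sign, nothing is given in the sources used here. Bins with a value in all 5 libraries were kept on 19 chromosomes, those with a Pearson r of at least 0.5 in all library pairs (chromosome 7 failed). Chromosome 7 had a lowest r of -0.976, so its sign as deposited was opposite between some libraries. limma 3.58.1 in R 4.3.3 was fitted to these values, 1 fit holding all 5 libraries (2 residual degrees of freedom), 2-sided, with Benjamini-Hochberg adjustment over bins or tiles. Early, with 1 library, takes the spread of the others. Tiles of 1 Mb started 0.05 Mb past each Mb. In every tile the same 8 measures were tested (24 tests over the 3 comparisons): its mean, its mean minus both neighbours, the stretches at the alpha, beta and gamma offsets, and their differences. Named bins were the highest and lowest of each stretch and the called bins (beyond 6, the 3 largest and 3 smallest). The fits were also run on simulated data with independent noise of equal SD in every library. Real bins share reads with their neighbours and the libraries differ in noise, so that run does not measure error rates in these data. Python 3.11.15 was used for the rest. The members, lists and tests were chosen with earlier results of these data known.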

Additional observations from a re-analysis of the deposited data

How the results depend on the processing

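Of 640 recomputed values, 541 kept their direction and side of the threshold (counts, within 1.5 times). Of the rest, 70 lost a call, 6 gained one, 12 changed sign and 11 counts moved further. Some of the 541 could not change. Leaving out Early does not alter Late minus Basal, and a shift of chromosome medians cancels in differences between stretches. Rescaling keeps every sign, and chromosome 18 already had an SD of 1.00. The 541 therefore overstates how far the results were tested. The cause of each change was not tested. With all sequences and chromosome 7 as deposited the differences are the same. The prior is weaker, and the adjustment runs over 50542 bins in place of 47652. Which of these ended a call was not tested. Locus bins called were 0 (Late minus Basal, 5 at an unadjusted p under 0.05), 6 (Early minus Basal) and 0 (Late minus Early, 10 at an unadjusted p under 0.05). Calls then lost were, for Late minus Basal, the locus (-0.20), the locus minus flanks (-0.15) and alpha minus beta (-0.47); for Early minus Basal, beta (-0.49), alpha minus beta (-0.61) and beta minus gamma (0.55); and for Late minus Early, alpha (0.47), alpha minus gamma (-0.60) and beta minus gamma (-0.74).

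With a 10 Mb running mean removed, Late minus Basal turned for the locus (0.063), beta (0.11), the upstream flank (0.15) and the downstream flank (0.19), gamma passed (0.30), and the locus minus flanks was lost (-0.11). Beta (-0.031) and the downstream flank (-0.031) in Early minus Basal and alpha in Late minus Early (0.27) were also lost, Early minus Basal called 5 bins, and 0 bins had opposite signs in either comparison with Early. Quantile normalization ended beta in Early minus Basal (-0.30) and turned gamma in Late minus Basal (-0.0030) and alpha minus gamma in Early minus Basal (0.014), both uncalled. Weighting by local noise ended, for Early minus Basal, beta (-0.49), alpha minus beta (-0.61) and beta minus gamma (0.55), and for Late minus Early, alpha minus gamma (-0.61) and beta minus gamma (-0.71), with 2 bins called. At an adjusted p of 0.1, Late minus Early called 11 bins.

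The replicate differences of Basal and Late correlated at 0.010 over bins, so no shared replicate pattern was seen. Whether libraries with the same replicate number share animals or a batch is not stated. With the replicate block, beta minus gamma lost its call in Early minus Basal (0.56) and Late minus Early (-0.74), and beta gained one in Late minus Early (0.41); no other region changed its call.

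Leaving out each library in turn gave, for Late minus Basal, differences of -0.29 to -0.12 for the locus, -0.15 to -0.14 for the locus minus flanks, -0.55 to -0.40 for alpha minus beta, -0.30 to -0.027 for beta, -0.069 to 0.11 for gamma, -0.13 to 0.021 for the upstream flank and -0.14 to 0.025 for the downstream flank, with 2 to 6 bins called. For Early minus Basal it gave -0.63 to -0.60 for alpha minus beta, -0.13 to 0.0079 for alpha minus gamma and 0.50 to 0.61 for beta minus gamma. For Late minus Early it gave 0.19 to 0.46 for beta, with 7 to 12 bins called. Gamma in Late minus Basal turned without Basal replicate 2 (-0.068) or Late replicate 1 (-0.069), alpha minus gamma in Early minus Basal without Basal replicate 2 (0.0079), and the flanks without Late replicate 2 (0.021 and 0.025) or, upstream, without Basal replicate 1 (0.020), all uncalled. Without Late replicate 1 both flanks were called lower (-0.13 and -0.14). Calls of single bins at 37150001, 37200001 and 37300001 in Late minus Basal were each lost without 1 or either Basal library.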
